A study of Homo sapiens with 6 samples.

Results

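Genes of the LIN28 and let-7 axis were examined as a set of 10: LIN28A, LIN28B, TRIM71, HMGA2, HMGA1, IGF2BP1, IGF2BP2, IGF2BP3, ARID3B and NR6A1. They were matched by symbol in a table of 59151 genes, where each was listed, and all 10 had the mean of at least 1 FPKM (fragments scaled by gene length and library size) required for testing. The set was chosen by the level of LIN28A, which had been seen to be higher in the knockdown libraries than in scramble, together with its known partners and targets. The values of its members against scramble are therefore given as a description. The cells were forebrain neuron progenitors at day 26, made from the established human embryonic stem cell line H9. They expressed a scrambled hairpin or 1 of 2 short hairpins, shRNA1 and shRNA2, directed at the circular RNA circRTN4(2,3), which RTN4 gives rise to, and the libraries were made to learn what this RNA does. Each of these 3 groups had 2 libraries of rRNA-depleted total RNA, and the labels give every group as genetically wild type. Whether replicates were separate cultures is not stated in the labels, and the p-values therefore reflect the spread of these libraries alone, possibly a technical one.

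LIN28A and its paralogue LIN28B are RNA-binding proteins that bind precursors of the let-7 microRNAs, block their processing and recruit enzymes that add uridines to them and mark them for decay. Mature let-7 in turn pairs with sites in the 3′ UTRs of growth and developmental timing genes, LIN28A and LIN28B among them, and lowers their output, so that the axis forms a loop of mutual inhibition. In the developing brain LIN28 and its partners are known as genes of the early neuroepithelium, and let-7 accumulates as neural cells mature.

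The mature let-7 family members are shown first, because the seed they share defines which sites belong to the axis. Capitals mark the seed, bases 2 to 8, and the sequences are those of RefSeq on GRCh38.p14.
let-7a-5p: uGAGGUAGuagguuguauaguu
let-7b-5p: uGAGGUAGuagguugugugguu
let-7c-5p: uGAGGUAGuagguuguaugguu
let-7d-5p: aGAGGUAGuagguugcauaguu
let-7e-5p: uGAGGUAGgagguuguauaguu
let-7f-5p: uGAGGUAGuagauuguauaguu
let-7g-5p: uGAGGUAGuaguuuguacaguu
let-7i-5p: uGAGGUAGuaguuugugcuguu
miR-98-5p: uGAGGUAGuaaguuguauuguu
The seed was identical in all of these, and the differences lay outside it.

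LIN28 proteins recognise the terminal loop of a let-7 precursor, where a GGAG motif is a known contact. Of 12 let-7 family hairpins in the RefSeq table, 9 (75%) held GGAG between the arms or at the start of the 3′ arm, on the transcribed strand. The whole hairpin held GGAG in 43.4% of 1560 human microRNA hairpins. The loops of MIRLET7C and MIRLET7D, with GGAG in capitals, are shown beside that of MIRLET7B, which lacked these letters; each runs from the end of the 5′ arm to the first bases of the 3′ arm.
MIRLET7C: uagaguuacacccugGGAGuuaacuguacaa
MIRLET7D: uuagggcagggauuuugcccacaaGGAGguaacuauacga
MIRLET7B: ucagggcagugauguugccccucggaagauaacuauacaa
MIR98 and MIRLET7A3 also had no match, which says only that these letters are not in this window.

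A 7-base match to the seed, CTACCTC, was searched on the transcribed strand of the 3′ UTR of the principal GENCODE v29 transcript of each gene (GRCh38). Each of the 10 genes held at least 1 match, against 8.33% of 19545 protein-coding genes and 15.1% of the 6531 whose 3′ UTR was as long as those of the set (1347 to 6206 bases). Membership in the axis rests on such sites, so this is a description of the choice. TRIM71 had 6 matches, NR6A1 5, and LIN28B, HMGA2 and IGF2BP1 4 each, while LIN28A, HMGA1, IGF2BP2, IGF2BP3 and ARID3B had 1 each. In ARID3B and HMGA1 the match was followed by T, and in the other genes at least 1 match was followed by A. The sites shown are the first such match of each gene, with the 7 bases in capitals, to let the genes be compared at the letters they share and around them.
LIN28A (chr1:26427349-26427370, plus strand): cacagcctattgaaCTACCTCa
LIN28B (chr6:105078813-105078834, plus strand): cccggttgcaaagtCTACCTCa
TRIM71 (chr3:32891969-32891990, plus strand): acattgcttaagtcCTACCTCa
HMGA2 (chr12:65963299-65963320, plus strand): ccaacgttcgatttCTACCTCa
IGF2BP1 (chr17:49051062-49051083, plus strand): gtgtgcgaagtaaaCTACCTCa
IGF2BP2 (chr3:185644220-185644241, minus strand): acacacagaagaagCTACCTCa
IGF2BP3 (chr7:23311795-23311816, minus strand): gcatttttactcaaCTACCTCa
NR6A1 (chr9:124522310-124522331, minus strand): gttgacaaagatgaCTACCTCa
HMGA1 (chr6:34245830-34245851, plus strand): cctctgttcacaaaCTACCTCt
ARID3B (chr15:74598102-74598123, plus strand): atttcaataaacctCTACCTCt
The bases upstream of the match differed from gene to gene.

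Depth recovered from the values was lowest for scramble replicate 1, with 46634855 reads, and lay between 77187298 and 83629504 for the rest. Replicates of scramble also resembled each other less: the median SD between replicates was 0.109 on the log2(FPKM + 1) scale for scramble, 0.0355 for shRNA1 and 0.0452 for shRNA2. RTN4, from which the circle is made, stood at 40.3 and 38.5 FPKM in scramble, 34.2 and 34.7 with shRNA1, and 31.2 and 31.3 with shRNA2. Reads of linear and circular RNA are pooled in these gene-level values, which do not measure how far the circle was depleted. Markers of neural progenitors were present throughout: all 12 of 12 passed the filter of a mean of 1 FPKM, with a summed level of 240 to 270 FPKM. Markers of neurons passed in 7 of 8 cases. Their sum was 369 and 364 FPKM in scramble, 381 and 385 with shRNA1, and 332 and 331 with shRNA2, which was lowest. Much of this sum was DCX, STMN2 and MAP2. With shRNA2 the median difference from scramble of the 7 markers was -0.05 on the log2(FPKM + 1) scale, beside -0.06 over all genes tested. The lower sum therefore cannot tell fewer neurons from a shift of the whole table.

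LIN28A was low in scramble and higher with the hairpins, most of all with shRNA2. Its gene spans chr1:26410778-26429722 on the plus strand. The scramble libraries held 2.08 and 2.45 FPKM of LIN28A, the shRNA1 libraries 2.86 and 2.86 FPKM, and the shRNA2 libraries 5.90 and 5.63 FPKM. The 3 groups did not overlap, and the 2 shRNA2 libraries lay apart from the other 4. The ratio of mean FPKM to scramble was 1.26 for shRNA1 and 2.55 for shRNA2. On the log2(FPKM + 1) scale, which understates changes of low genes, the differences were 0.25 ± 0.073 (SE from limma, n = 2 libraries a group) and 1.05 ± 0.073. Only 10 of the 18162 genes tested had a larger positive difference than LIN28A with shRNA2, against 987 with shRNA1. At least 195.25 reads lay on LIN28A in scramble replicate 1, the library of lowest depth, and 992.25 in shRNA2 replicate 1, that of highest depth. These reads are not scaled by depth, as the FPKM values are. In bulk RNA, fewer cells of a type and less RNA per cell cannot be told apart, and this holds for every level below.

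LIN28B, the paralogue and the more abundant of the pair in scramble, differed less. LIN28B (chr6:104936616-105083332, plus strand) stood at 7.09 and 5.99 FPKM in scramble, 7.23 and 7.56 with shRNA1, and 7.57 and 7.75 with shRNA2. All 4 knockdown libraries lay above both scramble libraries, and the difference was 0.16 ± 0.082 (SE) with shRNA1 and 0.20 ± 0.082 with shRNA2 on the log2 scale. In scramble LIN28B had a mean of 6.54 ± 0.782 FPKM (SD, n = 2) against 2.26 ± 0.259 for LIN28A; with shRNA2 the means were 7.66 ± 0.128 and 5.77 ± 0.186 FPKM. The gap between the paralogues was therefore narrower with shRNA2, where they did not overlap either. LIN28B-AS1, an antisense gene at the same locus, stood at 0.541 to 0.961 FPKM; the strand setting of the counting is not given in the sources used here, so reads of antisense partners cannot be told apart.

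TRIM71, a RING and NHL-domain protein that represses mRNAs of differentiation and is itself a classic let-7 target, followed LIN28A in order. TRIM71 (chr3:32818018-32897826, plus strand) stood at 2.76 and 2.70 FPKM in scramble, 3.02 and 3.01 with shRNA1, and 3.84 and 3.72 with shRNA2. The 3 groups were ordered scramble, shRNA1, shRNA2 with no overlap. The log2 difference was 0.11 ± 0.052 (SE) with shRNA1 and 0.36 ± 0.052 with shRNA2, a ratio of mean FPKM of 1.11 and 1.39. Across the 6 libraries TRIM71 was the member whose profile came closest to that of LIN28A, with Pearson's r = 0.987 on centred log2 values, given as a description because the libraries share their groups.

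**Figure D1:**
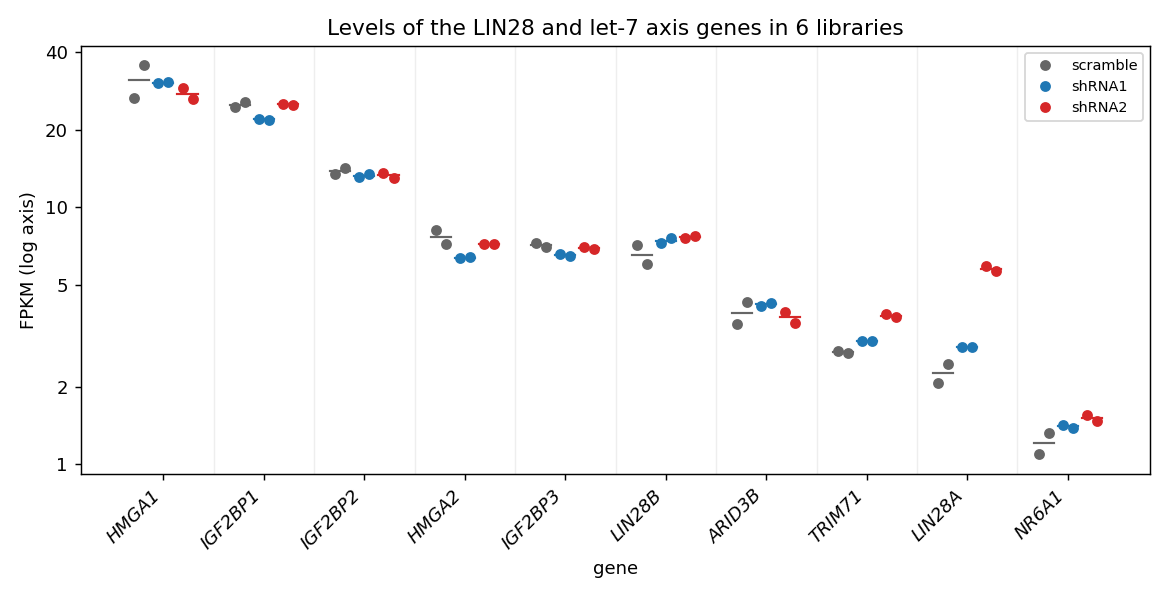
Level of each of the 10 genes in FPKM (log axis) in the 6 libraries; each point is a library and each bar the mean of the group's 2 libraries. LIN28A spans 2.08 to 5.90 FPKM with shRNA2 on top, while IGF2BP2 stays between 13.0 and 14.2 FPKM in every library.

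The HMGA genes encode architectural chromatin proteins of proliferating and embryonic cells. HMGA2 (chr12:65824131-65966295, plus strand) stood at 8.13 and 7.21 FPKM in scramble, 6.33 and 6.39 with shRNA1, and 7.16 and 7.19 with shRNA2. All knockdown libraries lay below scramble, with the shRNA1 libraries lowest and the shRNA2 libraries just under scramble replicate 2. The log2 differences were -0.23 ± 0.066 (SE) with shRNA1 and -0.08 ± 0.066 with shRNA2. HMGA1 (chr6:34236873-34246231, plus strand) had the highest mean level of the set, at 26.6 and 35.6 FPKM in scramble, 30.2 and 30.7 with shRNA1, and 28.97 and 26.3 with shRNA2. The scramble libraries were the farthest apart and overlapped both hairpins, and the log2 differences of -0.01 ± 0.140 (SE) and -0.15 ± 0.140 were within or near their error. HMGA1 has processed pseudogene copies in the table, of which HMGA1P2 stood at 2.02 to 3.36 FPKM, so its own share of reads is uncertain.

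The IGF2BP genes encode RNA-binding proteins that stabilise and localise mRNAs in embryonic tissue. IGF2BP1 (chr17:48997412-49055650, plus strand) stood at 24.5 and 25.6 FPKM in scramble, 22.1 and 21.9 with shRNA1, and 25.3 and 24.9 with shRNA2. Only the shRNA1 libraries stood apart, below the other 4, with a log2 difference of -0.18 ± 0.049 (SE) from scramble against 0.003 ± 0.049 with shRNA2. IGF2BP3 (chr7:23310209-23470467, minus strand) repeated that order at 7.26 and 6.97 FPKM in scramble, 6.55 and 6.48 with shRNA1, and 6.97 and 6.89 with shRNA2. IGF2BP2 (chr3:185643739-185825056, minus strand) varied least in relative terms, at 13.4 and 14.2 FPKM in scramble, 13.1 and 13.4 with shRNA1, and 13.6 and 13.0 with shRNA2. Its shRNA2 libraries overlapped both other groups, and its log2 difference from scramble was -0.05 with each hairpin. IGF2BP2-AS1, its antisense gene, stood at 1.58 to 2.13 FPKM.

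ARID3B, a DNA-binding protein of the ARID family, showed no separation with shRNA2. ARID3B (chr15:74541177-74598131, plus strand) stood at 3.50 and 4.26 FPKM in scramble, 4.13 and 4.24 with shRNA1, and 3.92 and 3.55 with shRNA2. The scramble libraries enclosed all 4 others, and the log2 differences were 0.09 ± 0.093 (SE) and -0.04 ± 0.093. NR6A1, the orphan nuclear receptor GCNF, which is known for shutting off pluripotency genes early in differentiation, was the lowest of the set. NR6A1 (chr9:124517275-124771310, minus strand) stood at 1.09 and 1.32 FPKM in scramble, 1.42 and 1.39 with shRNA1, and 1.56 and 1.48 with shRNA2. Its 3 groups were ordered like those of LIN28A without overlap, with log2 differences of 0.13 ± 0.075 (SE) and 0.19 ± 0.075 from scramble.

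Ordered by mean FPKM in scramble, the set ran from HMGA1 (31.1 ± 6.32, SD, n = 2) and IGF2BP1 (25.05 ± 0.814) through IGF2BP2 (13.8 ± 0.515), HMGA2 (7.67 ± 0.65), IGF2BP3 (7.12 ± 0.201) and LIN28B (6.54 ± 0.782) to ARID3B (3.88 ± 0.539), TRIM71 (2.73 ± 0.038), LIN28A and NR6A1 (1.21 ± 0.159). HMGA1 and IGF2BP1, HMGA2 and IGF2BP3, and IGF2BP3 and LIN28B were neighbours whose levels differed by no more than their spread. LIN28A held place 9 of 10 in scramble and place 7 with shRNA2, where it stood above TRIM71 and ARID3B. LIN28B moved from place 6 to place 4.

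Counted as a set, the members did not share a direction. With the mean of both hairpins, 4 of 10 (LIN28A, LIN28B, TRIM71 and NR6A1) lay above scramble in every library and 1 (HMGA2) below, against 5.87% and 12.6% of all 18162 genes tested. None was called by limma at a Benjamini-Hochberg adjusted p under 0.05, where 0.0826% of all genes were, and 3 had an unadjusted p under that value, against 13.8% of all genes. With shRNA1, 4 were higher and 4 lower without overlap (15.8% and 18.9% of all genes), 0 were called (0.033% of all genes) and 3 had an unadjusted p under 0.05 (8.97%). With shRNA2, 4 were higher and 1 lower without overlap (13.3% and 34.4% of all genes), and 1, LIN28A, was called (0.628% of all genes), while 3 had an unadjusted p under 0.05 (19.2%). The members had been picked with this contrast in view, so nothing is read from these counts. The median log2 difference of the 10 genes was -0.01 for both hairpins, 0.04 for shRNA1 and -0.02 for shRNA2, beside -0.03, -0.003 and -0.06 over all genes tested.

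**Figure D2:**
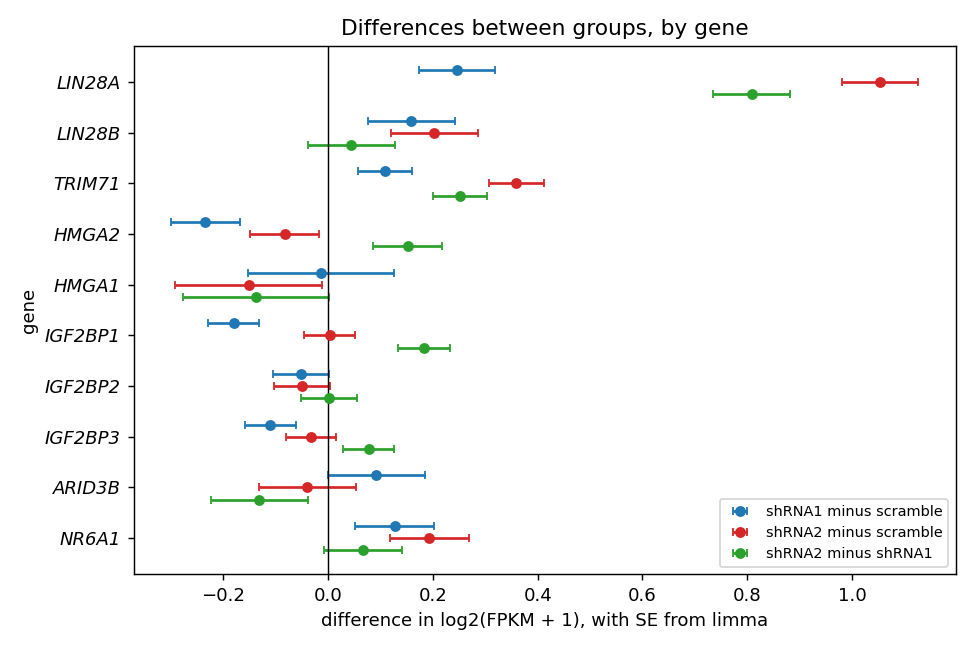
Difference in log2(FPKM + 1) between groups for each gene; points are limma estimates and bars their SE, from 2 libraries a group. LIN28A lies farthest to the right for shRNA2 (1.05 against scramble and 0.81 against shRNA1), and TRIM71 follows at 0.36 and 0.25.

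The call for LIN28A with shRNA2 depended on the libraries in the fit. It was lost when either shRNA1 library or either shRNA2 library was left out, while its difference stayed between 0.97 and 1.32 under every alternative run. Without scramble replicate 1, 4 members passed (LIN28A, LIN28B and TRIM71 higher, HMGA1 lower), and without scramble replicate 2, 2 did (LIN28A and TRIM71). The number of genes called over the whole table moved with it, from 114 to 2418 and 534, and to 0 without either shRNA2 library and 1 without either shRNA1 library. All calls with shRNA2 below share this limit.

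The hairpins were compared with each other directly, a contrast that did not choose the set as a whole, although LIN28A was high in the same shRNA2 libraries when it drew attention. Between shRNA2 and shRNA1, 7 of 10 members were higher with shRNA2 in every library, 2 (HMGA1 and ARID3B) were lower and IGF2BP2 overlapped, against 16.6% of all genes higher and 46.6% lower. LIN28A differed by 0.81 ± 0.073 (SE), TRIM71 by 0.25 ± 0.052, IGF2BP1 by 0.18 ± 0.049 and HMGA2 by 0.15 ± 0.066 on the log2 scale. None passed in limma with Benjamini-Hochberg adjustment, with adjusted p = 0.0976 for LIN28A, 0.165 for TRIM71, 0.210 for IGF2BP1 and 0.342 for HMGA2. The other 6 lay between -0.14 (HMGA1) and 0.08 (IGF2BP3), with adjusted p from 0.478 to 0.992 (limma with Benjamini-Hochberg adjustment). In this fit 0 of 18162 genes passed (0%), while 2929 (16.1%) had an unadjusted p under 0.05, 3 of the members among them. The fit shared its spread with the scramble libraries. Fitted on the 4 hairpin libraries alone, limma called 957 of the 18162 genes. LIN28A (limma, adjusted p = 0.0410), IGF2BP1 (0.0463) and TRIM71 (0.0485) were among them, 3 of 10 members. Without scramble replicate 1 or replicate 2 it called 978 and 1029 genes, with 3 members each time.

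The let-7 loci themselves gave few reads, and mature let-7 was not measured in these libraries of rRNA-depleted total RNA. Reads at a hairpin locus do not tell the precursor from longer transcripts that contain it. Of 20 listed let-7 precursor and host genes, 18 were in the table and 11 passed the filter. MIRLET7C on chromosome 21, whose host transcript is MIR99AHG, was the gene called among them, higher with shRNA2 and not with shRNA1. It had 3 and 4 reads in scramble, 5 and 3 with shRNA1, and 15 and 15 with shRNA2. The corresponding levels were 0.766 and 0.617 FPKM, 0.723 and 0.455 FPKM, and 2.14 and 2.23 FPKM, with the shRNA2 libraries above all others. Only the shRNA2 libraries stood above 1 FPKM, so MIRLET7C passed the filter through the group in which it was called higher. Its call is therefore given as a description. The log2 difference was 0.91 in shRNA2 against scramble (limma with Benjamini-Hochberg adjustment, adjusted p = 0.0496), and 1.01 against shRNA1 (adjusted p = 0.0976). The call was also lost with a pseudocount of 0.1 FPKM (adjusted p = 0.0722), after quantile normalization (0.0670) and without scramble replicate 2 (0.0552). MIR99AHG stood at 2.09 and 1.74 FPKM in scramble, 1.76 and 1.62 with shRNA1, and 2.31 and 2.31 with shRNA2, and did not pass.

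MIRLET7D, the locus with 35 to 58 reads, was lower with the hairpins in FPKM, at 8.63 and 8.64 in scramble, 5.51 and 7.76 with shRNA1, and 5.91 and 7.69 with shRNA2. MIRLET7F1, which lies in the same cluster, stood at 6.20 and 4.19 FPKM in scramble. It was higher with shRNA1, at 6.23 and 9.20, and overlapped scramble with shRNA2, at 5.50 and 7.84. MIRLET7A1 had 8 and 13 reads in scramble, 22 and 17 with shRNA1, and 29 and 18 with shRNA2, in libraries of unequal depth. In FPKM these were 2.14 and 2.11, 3.34 and 2.71, and 4.33 and 2.81. MIRLET7G had 5 and 2 reads in scramble and 12.5 to 17 in the knockdown libraries, or 1.28 and 0.308 FPKM against 1.86 to 2.42 FPKM. None of these 4 passed in any comparison. With shRNA1, MIRLET7I differed from scramble by -0.69 and MIR98 by 0.50 on the log2 scale, and neither passed. Of the 11 genes tested, 3 had an unadjusted p under 0.05 in limma in each comparison with scramble and 4 between the hairpins. The shares of all genes were 13.8% with both hairpins, 8.97% with shRNA1, 19.2% with shRNA2 and 16.1% between the hairpins. MIRLET7B was at or near 0 in every library (0 to 1 read).

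**Figure D3:**
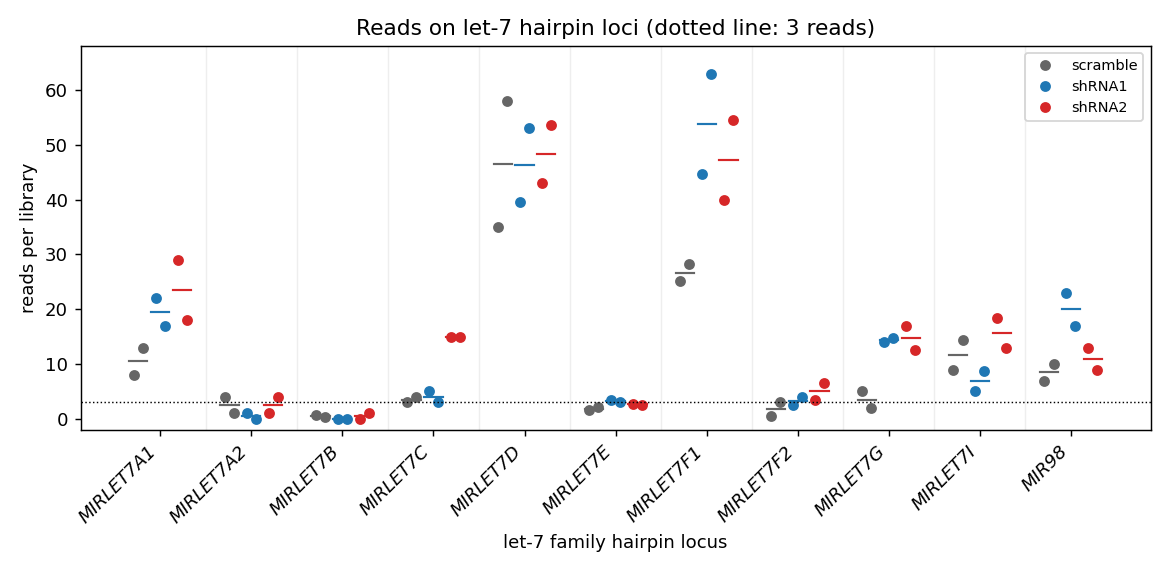
Reads recovered on each let-7 family hairpin locus in the 6 libraries; points are libraries, bars group means, and the dotted line marks 3 reads. MIRLET7C holds 15 reads in each shRNA2 library and 3 to 5 in the other 4, and MIRLET7D and MIRLET7F1 hold the most reads. Reads are not scaled by depth, which was lowest for scramble replicate 1.

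Genes of microRNA biogenesis, and of the tailing and decay of let-7 that LIN28A directs, showed no call. Of 23 listed genes, 20 were in the table and passed the filter, and limma called 0 of 20 in each of the 4 comparisons. An unadjusted p under 0.05 was found for 3 of 20 with both hairpins, 2 with shRNA1, 5 with shRNA2 and 2 between the hairpins, beside 13.8%, 8.97%, 19.2% and 16.1% of all genes. The terminal uridylyltransferases that tail pre-let-7 are listed under their older symbols. ZCCHC11 (TUT4) averaged 6.11 FPKM in scramble and 6.55 with shRNA2, and ZCCHC6 (TUT7) 3.04 and 3.00. DIS3L2, the exonuclease that degrades the tailed precursor, averaged 1.99 and 1.89 FPKM, and DICER1, which cuts precursors to mature microRNAs, 10.78 and 10.96. DROSHA, which releases the hairpin in the nucleus, fell from a scramble mean of 8.14 FPKM to 7.45 (shRNA1) and 6.99 (shRNA2), without passing. The median log2 difference of these 20 genes with shRNA2 was -0.05, against -0.06 over all genes.

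Other known or conserved let-7 targets lay near the rest of the table. Of 40 listed genes outside the set, 35 passed the filter, and with shRNA2 7 lay above 0 and 28 below, with a median of -0.08, beside -0.06 over all genes. This is 20% above 0, against 32.3% of all genes tested and 18.4% of those with a 3′ UTR in GENCODE v29. With shRNA1, 17 lay above 0 and 18 below. PBX3, a homeodomain cofactor, was the listed target called, and it was lower with shRNA2. Its mean level was 26.1 FPKM for scramble, 23.9 for shRNA1 and 17.8 for shRNA2, a log2 difference of -0.53 (limma with Benjamini-Hochberg adjustment, adjusted p = 0.0486). After median-of-ratios scaling this was -0.45 (adjusted p = 0.0792) and after quantile normalization -0.38 (0.148). CCND2, a cyclin of the G1 phase, was lower in every knockdown library at 34.7 and 34.9 FPKM in scramble, 30.8 and 31.2 with shRNA1, and 27.4 and 27.6 with shRNA2, and did not pass. PRTG, a receptor of the early neural tube, differed from scramble by 0.32 with shRNA2 and -0.07 with shRNA1, and ONECUT2, a transcription factor, by 0.21 and 0.27; neither passed. LIN28A's partner L1TD1, an RNA-binding protein of pluripotent cells, was below the filter at 0.0968 and 0.0260 FPKM in scramble, 0.0791 and 0.0287 with shRNA1, and 0.342 and 0.331 with shRNA2.

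Across the table, the number of seed matches did not order the differences. Among tested genes outside the set that had a 3′ UTR in GENCODE v29, the median log2 difference with shRNA2 was -0.09 for the 9049 genes without a match, -0.08 for 912 genes with 1, -0.08 for 93 genes with 2 and -0.09 for 20 genes with 3 or more. With shRNA1 the medians were -0.01, -0.004, -0.02 and 0.008. Of the 20 genes with 3 or more matches, limma called 0 in any comparison. The 5 members in this class spread from -0.08 (HMGA2) to 0.36 (TRIM71) with shRNA2. Genes with more matches had longer 3′ UTRs, with medians of 1077, 2786, 5729 and 6447.5 bases, and this was not adjusted for.

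**Figure D4:**
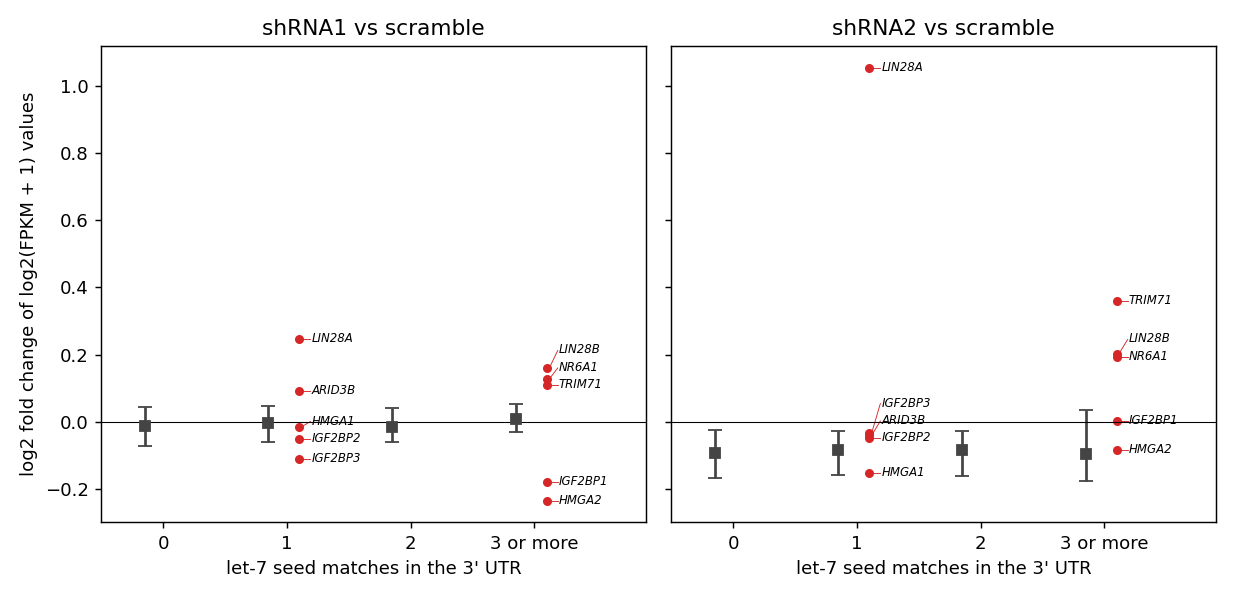
Log2 fold change against the number of let-7 seed matches in the 3′ UTR, for shRNA1 (left) and shRNA2 (right); squares are the medians of tested genes outside the set with bars from the lower to the upper quartile, and red points are the 10 members. The medians lie between -0.09 and -0.08 for shRNA2 in every class, while LIN28A, with 1 match, lies at 1.05.

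Some markers of pluripotent cells were higher in the shRNA2 libraries, where LIN28A was highest. Of 15 listed markers, 5 passed the filter, and limma called 2 of them higher with shRNA2, DPPA4 and SALL4, where it called 0.628% of all genes. DPPA4, a chromatin factor of the early embryo, stood at 2.91 and 2.53 FPKM in scramble, 3.05 and 3.16 with shRNA1, and 5.60 and 5.95 with shRNA2. Its log2 difference from scramble was 0.87 (limma with Benjamini-Hochberg adjustment, adjusted p = 0.0353), and that of SALL4, a zinc finger factor of stem cells, was 0.54 (adjusted p = 0.0486). The mean level of SALL4 was 2.67 FPKM for scramble, 2.86 for shRNA1 and 4.32 for shRNA2. SOX2, which neural progenitors share, stood at 32.7 and 31.0 FPKM in scramble, 28.6 and 29.1 with shRNA1, and 32.0 and 31.8 with shRNA2; the shRNA1 libraries were lowest, and it did not pass. TERF1, a telomere protein, overlapped between all groups at 3.05 to 3.58 FPKM.

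The defining markers were close to 0. POU5F1 stood at 0.0498 and 0.0370 FPKM with shRNA2 and at no more than 0.0101 in the other 4 libraries, and NANOG at 0.0687 and 0.0417 against no more than 0.0113. TDGF1 was at 0.186 and 0.241 FPKM with shRNA2 and no more than 0.0141 elsewhere. Of the 15 markers, 12 were higher in both shRNA2 libraries than in each of the other 4, a pattern seen in 7.35% of the genes tested and 8.04% of those below the filter. TERF1, SOX2 and LNCPRESS1 did not show it, and several of the 12 lay at levels that a few reads can give. The summed level of the 10 markers below the filter was 0.189 and 0.148 FPKM in scramble, 0.192 and 0.175 with shRNA1, and 1.41 and 1.31 with shRNA2. The sum of all 15 ran from 44.1 to 46.4 FPKM in scramble, from 42.5 to 43.0 with shRNA1 and from 52.3 to 52.4 with shRNA2, most of it SOX2. PRDM14 was at 0 in all scramble and shRNA1 libraries, ZFP42 in both scramble libraries, ESRG in scramble replicate 1, UTF1 in shRNA1 replicate 1, and LNCPRESS1 in scramble replicate 1 and shRNA1 replicate 1. No marker was at 0 in a shRNA2 library. The part of these markers in the level of LIN28A was not tested.

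**Figure D5:**
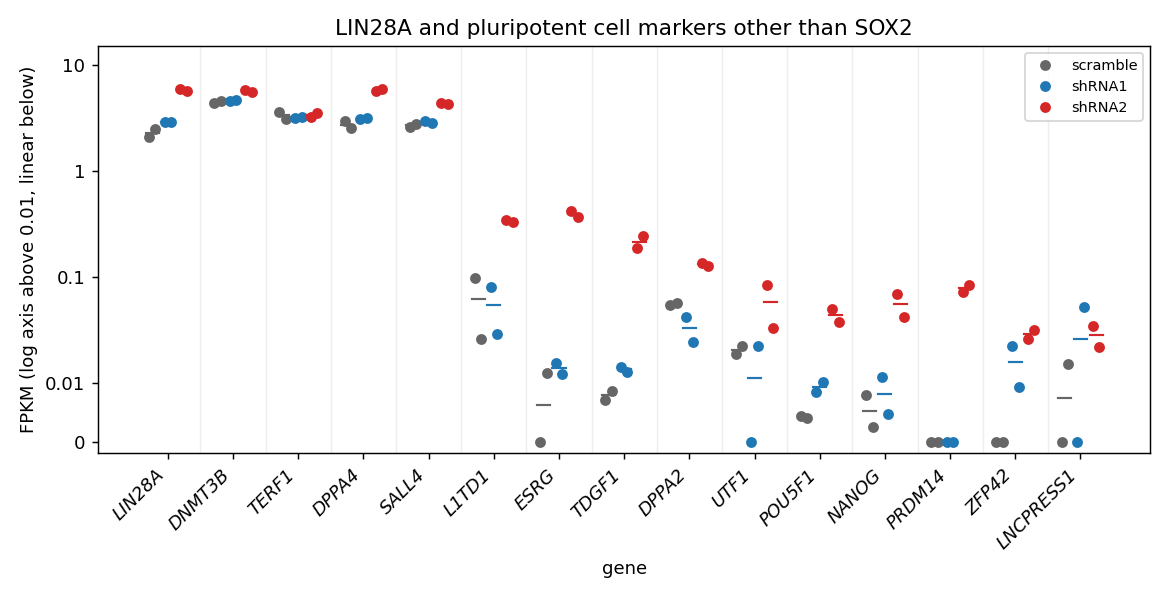
LIN28A and the pluripotent cell markers other than SOX2 in FPKM (log axis above 0.01, linear below) in the 6 libraries; points are libraries and bars group means. The shRNA2 libraries lie on top for LIN28A, DPPA4, SALL4 and DNMT3B and for 9 of the 10 markers below the filter, of which L1TD1 and ESRG reach 0.342 and 0.415 FPKM.

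The summed levels of 3 lists of other cell markers were higher in scramble than with either hairpin. Markers of choroid plexus, 2 of 5 of which passed the filter, summed to 7.78 and 8.35 FPKM in scramble and 1.25 to 2.17 FPKM in the 4 knockdown libraries, and those of neural crest and mesenchyme, with 1 of 9 past the filter, to 6.48 and 7.19 against 1.65 to 2.17 FPKM. Much of both sums was TTR, at 6.03 and 6.63 FPKM in scramble, 0.497 and 0.785 with shRNA1, and 0.0577 and 0.0632 with shRNA2, and COL3A1, at 3.16 and 3.49, 0.538 and 0.476, and 0.0790 and 0.0459 FPKM in the same order. In all knockdown libraries 3 of the 5 and 7 of the 9 markers lay below scramble, and the others overlapped. The share among genes tested was 12.6%, but most of these markers lay below the filter, where no such share was taken. PRRX1 was higher with shRNA2 than in the other 4 libraries. Markers of endoderm, with 0 of 5 past the filter, summed to 0.497 and 0.373 FPKM in scramble and 0.00161 to 0.0193 FPKM in the 4 knockdown libraries. The part of these 3 lists in the differences of the axis genes from scramble was not tested.

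The genes whose profile over the 6 libraries came closest to that of LIN28A were ranked by the root mean square difference of centred log2 values, among the 18161 other genes tested. Among the closest were FRZB (0.059), FGF19 (0.066), NPY2R (0.122), DPPA4 (0.125), DLK1 (0.138), CAPN6 (0.141) and GNRH1 (0.170), with Pearson's r from 0.961 to 0.996 over the same libraries. FRZB, a secreted Wnt antagonist, stood at 2.78 and 2.92 FPKM in scramble, 3.61 and 3.45 with shRNA1, and 7.32 and 6.21 with shRNA2. FGF19, a fibroblast growth factor, stood at 2.35 and 3.07, 3.37 and 3.33, and 6.34 and 5.79 FPKM in the same order. In each of these genes the shRNA2 libraries were highest and scramble lowest, a pattern by which they were chosen. No other member of the axis was among them; TRIM71, the closest, was at 0.305, and NR6A1 at 0.381.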

How the data were processed

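The authors deposited 1 table of FPKM values per gene symbol for 6 libraries, per the file headers. The submitters' processing notes name HISAT2 2.1.0, featureCounts 2.0.1, Trimmomatic 0.39 and SAMtools 1.9 and the build GRCh38; annotation and strand setting were not given in the sources used here. The analysis used log2(FPKM + 1), unscaled, of the 18162 genes whose mean reached 1 FPKM. All 3 groups entered a fit in limma 3.58.1 (R 4.3.3) with a mean-variance trend, two-sided, with Benjamini-Hochberg adjustment over these genes, and genes were called at an adjusted p under 0.05. The fit was tested on simulated data. The 4 comparisons were both hairpins, shRNA1 and shRNA2 against scramble, and shRNA2 against shRNA1.

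Depth and reads per gene were recovered from the spacing of low FPKM values. Reads were counted in fractions, and recovered gene lengths may be divisors of the real ones, so reads given for genes other than hairpins are lower bounds. On a gene of 1 kb, 0.0120 to 0.0214 FPKM is the worth of 1 read, depending on the library, and 0.0359 to 0.0643 FPKM that of 3 reads, for counting error only. Python 3.11.15, numpy 2.4.6, pandas 2.3.3 and matplotlib 3.10.9 were used.

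The 10 genes, the lists of pathway genes and markers, and the rules were chosen with earlier results of these data known. Always named were the 10 members. Of the lists, those called and those chosen as known parts of the pathway were named. Some were named after their values were seen (CCND2, PRTG, ONECUT2, DROSHA, AGO1, MIRLET7I, MIR98). The genes most like LIN28A were taken by rank, the first 8, of which 1 is not reported here. Alternatives were another pseudocount, other filters, scalings and spreads, a replicate block and each library left out.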

Additional observations from a re-analysis of the deposited data

How the results depend on the processing

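LIN28A, LIN28B, TRIM71 and NR6A1 kept a positive difference in all 4 comparisons under every alternative in which they were tested; at a minimum mean of 5 FPKM LIN28A, TRIM71, ARID3B and NR6A1 were not tested. HMGA1, ARID3B, IGF2BP1 and IGF2BP2 changed direction against scramble with the setting, as did HMGA2 and IGF2BP3 with shRNA2. IGF2BP2 between the hairpins was 0.002, and ranged from -0.029 to 0.032 with 1 library left out (-0.011 without shRNA1 replicate 1, -0.029 without shRNA2 replicate 1). The adjusted p of LIN28A (limma with Benjamini-Hochberg adjustment) ran from 0.0120 to 0.321 for shRNA2, under the threshold in 7 of 15 fits, and from 0.0393 to 0.715 between the hairpins, under it in 3 of 14.

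Members called numbered 0 with both hairpins, and 1 after median-of-ratios scaling and after quantile normalization. With shRNA2, 1 was called, and 0 with no filter, with at least 5 FPKM, in the fit of the groups compared only, with the replicate block and with crossed numbers. Between the hairpins, 0 were called, and 3 in the fit of those groups only. Leaving out 1 library at a time gave 0 to 1 members with both hairpins, 0 to 4 with shRNA2 and 0 to 3 between the hairpins.

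Genes called with both hairpins numbered 15 (1 higher, 14 lower), 0 with no filter, 35 with at least 5 FPKM, 28 after median-of-ratios scaling (10 higher, 18 lower), 30 after quantile normalization (12 and 18) and 1 with the replicate block. With shRNA1 they numbered 6, 2 with a pseudocount of 0.1 FPKM, 0 with no filter, 3 with at least 5 FPKM, 0 for those groups only and 0 with the replicate block. With shRNA2 they numbered 114 (34 higher, 80 lower), 0 with no filter, 261 with at least 5 FPKM, 91 after median-of-ratios scaling (43 and 48), 71 after quantile normalization (37 and 34), 35 without the mean-variance trend, 1 for those groups only, 0 with the replicate block and 7 with crossed numbers, a fit chosen after seeing the data. Between the hairpins 0 genes were called, 46 with at least 5 FPKM and 957 for those groups only. Leaving out 1 library at a time gave 0 to 507 genes with both hairpins, 0 to 1 with shRNA1, 0 to 2418 with shRNA2 and 0 to 1029 between the hairpins, where a group left with 1 library is assumed to vary like the others. The filters change the number of genes tested; for the other settings the cause was not tested.

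Replicate numbers were not shown to pair the libraries: deviations of same-numbered libraries correlated at -0.0077 between scramble and shRNA1, -0.150 between scramble and shRNA2 and 0.012 between the hairpins. Depth limits MIRLET7C, with 3 to 15 reads a library, and the pluripotent cell markers below the filter, several of which rest on few reads.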
